A study of Mus musculus with 4 samples.

Results

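The cells described here were fibroblasts of bleomycin-injured mouse lungs that carried RNA of Cthrc1, which encodes a secreted glycoprotein of injured and remodelling tissue. A cell was taken as Cthrc1+ when it had at least 2 unique molecular identifiers (UMIs, that is counted RNA molecules) of Cthrc1, at least 5 of Col1a1, the alpha-1 chain of type I collagen, and at least 1 UMI of any of 5 companion genes (Grem1, Thbs4, Fst, Dkk2 and Fbn2). It also had no UMI of Mki67, a proliferation gene, and none of Ptprc, Cdh5 or Epcam, which mark immune, endothelial and epithelial cells. Of the 30860 cells with 200 to 7500 genes and at most 15% mitochondrial UMIs, 1314 met this rule. Measured values therefore chose the members, and the levels of these genes in them are given as a description.

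The study asked what loss of β-III tubulin (Tuj1), the product of Tubb3, does to the cells around lung pericytes during fibrosis. Droplet 3′ RNA-seq was carried out on lungs of 2 WT and 2 Tubb3-/- littermates 14 days after bleomycin at 0.8 U/kg into the trachea, so all 4 mice had been injured and no saline-treated lung entered the comparison. The Tubb3-/- mice were homozygous for a Tubb3-Cre knock-in, in which Cre sits in frame at the start codon of Tubb3. The allele is carried by every cell of these mice, brings Cre with it, and was made homozygous by crossing heterozygotes. The mice were between 8 and 11 weeks of age by the methods of the study, which used both sexes. Cells of each mouse were tagged and measured in 2 pools. The whole-cell pool was depleted of TER-119+ erythrocytes and sorted for live cells. The mural cell-enriched pool was depleted of CD31+, CD45+, EpCAM+ and TER-119+ cells, after which MCAM+ PDGFRα- and MCAM- cells were sorted and mixed 1:1. The sort thus sets the makeup of the second pool, and shares of all lung cells were read in the whole-cell pool.

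Fibroblasts build and renew the lung interstitium. After injury, TGF-β and mechanical tension drive part of them into a matrix-producing state in which fibrillar collagens, crosslinking enzymes and matricellular proteins such as periostin and tenascin-C are made in excess. Resident alveolar fibroblasts, which carry Npnt, Ces1d and Inmt, are a known source of such cells in mice, and Cthrc1 is a marker of the state in mouse and human lungs. Among the companion genes, Grem1 encodes a secreted BMP antagonist, Fst an activin antagonist, Dkk2 a Wnt modulator, Thbs4 a matricellular thrombospondin and Fbn2 a microfibril protein.

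Each of the 8 libraries held 41462258 to 95036340 gene UMIs. Tubb3 was at 0.868 to 5.49 CPM, which are UMIs scaled to a common total of gene UMIs, in the 4 WT libraries and at 0.262 to 0.789 CPM in the 4 Tubb3-/- libraries. Cre was at 0 CPM in every WT library. It was at 0.0291 and 0 CPM in the whole-cell and at 0.0105 and 0.0243 CPM in the mural cell-enriched libraries of Tubb3-/- replicates 1 and 2. So few UMIs do not tell the genotype of a library. No barcode was shared between mice of a pool. The X- and Y-linked genes put a male and a female mouse in each genotype, so that replicate number and sex coincided. Scrublet marked 42 of the members as doublets, all of them in the mural cell-enriched pool. Members had a median of 23743 gene UMIs, and fibroblasts without Cthrc1 (defined with the comparison of both classes) 17505.

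The rule narrowed the cells in steps. At least 2 Cthrc1 UMIs were found in 2104 cells, 1941 of these had 5 or more Col1a1 UMIs, 1611 also had a companion gene, 1523 of them lacked Mki67, and 1314 lacked the 3 lineage genes as well. The 226 members with exactly 2 Cthrc1 UMIs, just inside the threshold, held Postn at 274 CPM, Tnc at 655 CPM and the alveolar gene Inmt at 404 CPM. The 859 cells with 1 Cthrc1 UMI, just outside it, held them at 290, 508 and 582 CPM. The 1088 members with 3 or more Cthrc1 UMIs held them at 692, 1142.3 and 97.3 CPM. The members at the edge thus lay nearer to the cells outside than to the other members.

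The label was checked against its markers. Among members thinned to 5000 UMIs, Postn was found in 62.0% of cells, Tnc in 80.3% and Col12a1 in 65.9%, against 4.45%, 4.54% and 2.14% of cells with 2 or more Ptprc UMIs, which should lack them. Without thinning these shares among members were 83.5%, 90.9% and 87.7%, at median depths of 23743 UMIs in members and 10814 UMIs in Ptprc cells. Runx1 does not tell these classes apart, since it was found in 73.9% of members and in 80.7% of Ptprc cells after thinning. The fibroblasts without Cthrc1, thinned likewise, held Postn in 19.9% of cells, Tnc in 35.6% and Col12a1 in 22.3%. Lox was found in 66.2% of thinned members and in 61.3% of these fibroblasts, and so hardly told them apart. Nrep was found in 65.3% and 38.1%, and Adam12 in 12.3% and 4.86%. Companion genes were not uniform. Fst was present in 85.2% of members, Dkk2 in 51.9%, Fbn2 in 47.7%, Thbs4 in 47.5% and Grem1 in 37.7%. A single companion gene admitted 330 members (25.1%), whereas 121 (9.21%) held all 5.

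Cthrc1+ fibroblasts made up a larger part of the lung cells in each Tubb3-/- mouse than in either WT mouse. In the whole-cell libraries they were 0.910% of cells in WT replicate 1 (31 of 3406, Wilson 95% interval 0.642 to 1.29%) and 0.321% in WT replicate 2 (10 of 3119, 0.174 to 0.589%). They were 1.96% in Tubb3-/- replicate 1 (82 of 4179, 1.58 to 2.43%) and 1.30% in Tubb3-/- replicate 2 (45 of 3456, 0.975 to 1.74%). The genotypes did not overlap, averaging 0.615% ± 0.417 for WT and 1.63% ± 0.467 for Tubb3-/- (SD, n = 2 mice each), a ratio of 2.65. The exact two-sided permutation p over mice was 0.333, which is the smallest p that 2 against 2 mice can give. The intervals cover counting error only. Leaving out WT replicate 1 gave a ratio of 5.09 and leaving out WT replicate 2, the library with 10 members, gave 1.79.

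The members were also taken as a share of all cells that passed the Col1a1 threshold and the Mki67 and lineage conditions, over both pools. These Col1a1-gated cells numbered 13102. WT replicates 1 and 2 had 5.80% and 3.99% of Cthrc1+ cells among them, and Tubb3-/- replicates 1 and 2 had 15.8% and 11.2%, a mean of 4.89% ± 1.28 against 13.5% ± 3.25 (SD, n = 2 each) and a ratio of 2.76 (exact two-sided permutation p = 0.333, the smallest possible). The genotypes stayed apart in the whole-cell libraries alone (7.95% and 2.71% against 14.0% and 9.91%) and in the mural cell-enriched libraries alone (5.49% and 4.22% against 16.1% and 11.4%). Members of Tubb3-/- mice were somewhat deeper, with medians of 25430 and 22883 UMIs against 21998 and 20520. With every cell thinned to 5000 UMIs before the rule was applied, the shares were 3.95% and 3.03% against 11.7% and 7.08%. Col1a1-gated cells themselves were 11.5% and 11.8% of whole-lung cells for WT and 14.0% and 13.1% for Tubb3-/-.

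**Figure D1:**
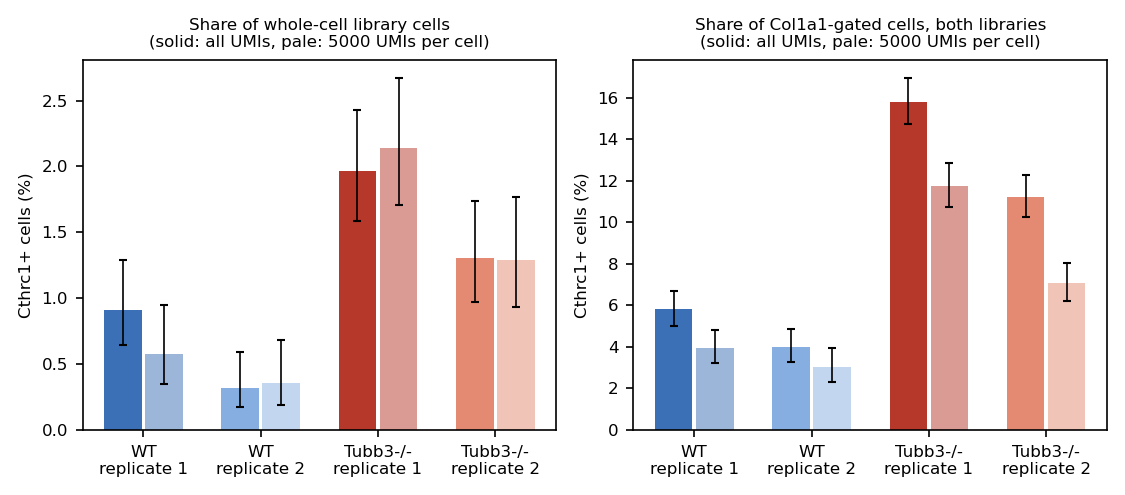
Cthrc1+ fibroblasts as a percentage (y axis) of all cells in the whole-cell library of each mouse and of Col1a1-gated cells over both pools, with Wilson 95% intervals. Solid bars use all UMIs and pale bars use cells thinned to 5000 UMIs, and both Tubb3-/- mice lie above both WT mice in each set of bars, at 1.96% and 1.30% against 0.910% and 0.321% of whole-lung cells with all UMIs.

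Cells that met the rule except that they held Mki67 were few, 68 in all. Of the Cthrc1+ cells with and without Mki67 together, they were 10 of 187 and 4 of 100 in WT replicates 1 and 2 and 35 of 667 and 19 of 428 in Tubb3-/- replicates 1 and 2. The mean shares were 4.67% ± 0.953 and 4.84% ± 0.571 (SD, n = 2 mice each, exact two-sided permutation p = 1.00). The genotypes overlapped in this share.

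To describe what the members express, they were set beside 6323 Cthrc1-zero fibroblasts, which had 5 or more Col1a1 UMIs, at least 1 UMI of the fibroblast receptor gene Pdgfra, no Cthrc1, no Mki67 and no lineage gene. Of these fibroblasts, 5296 also held Npnt and at least 1 of the alveolar genes Ces1d, Inmt and Slc7a10, so the class was mostly alveolar. UMIs were summed per mouse in each class. Since both classes were chosen on the same cells, ratios, taken as log2 of CPM + 1 within each mouse, are given without a test. Of 3670 genes with at least 50 CPM in either class, 80 (2.18%) were at least 2-fold higher in members in each of the 4 mice and 135 (3.68%) at least 2-fold lower. The median log2 ratio of all these genes was -0.0594. With cells thinned to 5000 UMIs and both classes chosen anew on the thinned UMIs, the counts were 101 and 238, and 0 genes of either set turned direction.

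The genes highest in members against Cthrc1-zero fibroblasts encode collagens of cartilage and vessel wall, bone and tendon proteins and secreted factors. Col8a1, a short-chain collagen, was at 329, 277, 377 and 331 CPM in members of WT replicates 1 and 2 and Tubb3-/- replicates 1 and 2, and at 12.3, 10.3, 15.3 and 13.7 CPM in Cthrc1-zero fibroblasts. Its levels in members exceeded the others in every mouse, by a median log2 ratio of 4.58 (range 4.50 to 4.63). Col11a1, a fibrillar collagen best known from cartilage, was at 65.4, 53.1, 55.3 and 38.0 CPM in members, with a median log2 ratio of 4.85, and at 1.81 CPM or less in Cthrc1-zero fibroblasts. Further members of the set were Igfbp2 (4.07), an IGF-binding protein, Tnfrsf11b (3.49), the RANKL decoy receptor osteoprotegerin, and Kif26b (3.27), an atypical kinesin. The tendon transcription factor Scx followed at 3.17, the matricellular Thbs2 at 3.13, the growth factor pleiotrophin (Ptn) at 3.06, Megf11 at 2.98, the mitogen Pdgfc at 2.92 and the mechanosensitive channel Piezo2 at 2.75.

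The genes that tell these cells from other fibroblasts, and Runx1 among the markers of the label, were looked up in the RefSeq promoter windows (GRCm38.p6, 250 bases before to 50 after a transcription start), since Runx1 itself encodes a DNA-binding factor. Of 21 genes, namely Cthrc1, the 5 companion genes, Runx1 and 14 of the genes highest in members, 14 matched an entry. There was no entry for Cthrc1, Fbn2, Fst, Megf11, Piezo2, Scx and Tnfrsf11b. The RUNX core motif TGTGGT, or ACCACA when read on the other strand, occurred in 3 of the 17 windows of these genes, those of Col8a1, Spp1 and Runx1, and in 5506 of all 32851 windows (16.8%). The letters are a description and not a binding site. The 3 windows, 5′ to 3′ on the gene's strand with the motif in capitals, were chr16:57754688-57754987 (minus strand, match starting at -230 from the start site), chr5:104434861-104435160 (plus strand, match starting at -128) and chr16:92826025-92826324 (minus strand).
Col8a1: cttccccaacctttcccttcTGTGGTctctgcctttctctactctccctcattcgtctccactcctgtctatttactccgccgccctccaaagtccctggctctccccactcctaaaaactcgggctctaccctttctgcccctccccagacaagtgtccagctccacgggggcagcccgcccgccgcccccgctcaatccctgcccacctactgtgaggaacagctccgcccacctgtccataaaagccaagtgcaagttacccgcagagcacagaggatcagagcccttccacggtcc
Spp1: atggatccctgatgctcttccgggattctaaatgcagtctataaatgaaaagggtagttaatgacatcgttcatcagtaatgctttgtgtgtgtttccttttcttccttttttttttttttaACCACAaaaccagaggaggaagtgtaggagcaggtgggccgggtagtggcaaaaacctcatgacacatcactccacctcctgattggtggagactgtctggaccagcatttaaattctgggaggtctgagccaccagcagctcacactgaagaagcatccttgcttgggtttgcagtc
Runx1: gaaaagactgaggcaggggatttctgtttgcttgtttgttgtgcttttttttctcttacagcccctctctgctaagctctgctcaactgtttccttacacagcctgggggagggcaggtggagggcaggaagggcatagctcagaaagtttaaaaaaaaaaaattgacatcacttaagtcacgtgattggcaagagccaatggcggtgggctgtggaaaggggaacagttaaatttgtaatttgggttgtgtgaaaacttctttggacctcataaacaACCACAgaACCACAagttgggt

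Spp1, which encodes the phosphoprotein osteopontin, and the bone sialoprotein gene Ibsp had high sums in members that came from few cells. Spp1 was at a median log2 ratio of 3.65 and Ibsp at 4.39. The 5% of members with most Spp1 held 74.1%, 92.7%, 80.6% and 73.7% of its UMIs in the 4 mice, and a single cell held 86.2% in WT replicate 2, while the median member had 2 or 3 Spp1 UMIs. These 67 cells were deep, with a median of 35906 UMIs, and held Spp1 at 43780.7 CPM against 1026.3 CPM in the other members. The macrophage genes Cd68 and C1qa were at 1.44 CPM each in them, and Lyz2 was at 55.8 CPM against 76.6 CPM in the other members, whereas Trem2, another macrophage gene, was at 7.71 CPM against 0.805 CPM. The part of macrophage RNA in the Spp1 values was not tested. Their Postn and Cthrc1 levels were 524 and 642 CPM against 622 and 946 CPM. Ibsp was detected in 6.21%, 3.12%, 3.16% and 1.96% of members, and Zfp804a, a zinc finger gene with a median log2 ratio of 4.30, likewise drew 75.5 to 88.8% of its UMIs from the top 5% of members in each mouse.

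The collagens include the structural product of these cells. Of 21 collagen genes measured at 10 CPM or more, 6 were at least 2-fold higher in members in all 4 mice and 0 lower, with a median log2 ratio of 0.810, where 173 of all 9049 genes at that level were higher, 223 lower and the median was -0.0832. Besides Col8a1 and Col11a1, the set held Col7a1 (2.13), the anchoring fibril collagen, Col12a1 (1.85), a fibril-associated collagen, Col24a1 (1.78) and Col8a2 (1.45). Col3a1 was at 6235 CPM in members and 4578 CPM in Cthrc1-zero fibroblasts, and Col1a2 at 6118 and 3186 CPM. Col14a1 was at 162 CPM in members and 226 CPM in Cthrc1-zero fibroblasts, and Col18a1 at 83.7 and 128 CPM.

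Of 35 matrix glycoproteins and proteoglycans, 9 were higher and 2 lower in all mice, at a median of 0.359, beside 173 higher and 223 lower of all 9049 genes. Postn, which encodes periostin, was at 632, 591, 677 and 561 CPM in members against a mean of 96.6 CPM, a median log2 ratio of 2.71. Tnc, which encodes tenascin-C, was at 1286, 1063, 1042 and 1027 CPM against a mean of 272 CPM. Both genes were above every Cthrc1-zero value in every mouse. Edil3 (4.10), an integrin ligand, the small proteoglycan Fmod (2.60) and Cilp (2.10), a cartilage matrix protein, belonged to the same set. Among 21 matrix proteases and inhibitors, 5 were higher and 0 lower, namely the metalloprotease inhibitor Timp1 (1.90), Adam19 (1.58), Adamts6 (1.52), Adam12 and the protease inhibitor Serpine2 (1.46). Of 23 genes for collagen processing and crosslinking, 1 was higher and 2 lower. Lox, the lysyl oxidase, hardly differed, at 276, 217, 342 and 288 CPM in members against a mean of 258 CPM, whereas its relative Loxl3 was at 1.21 and transglutaminase Tgm2 and the procollagen enhancer Pcolce2 both at -1.48.

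**Figure D2:**
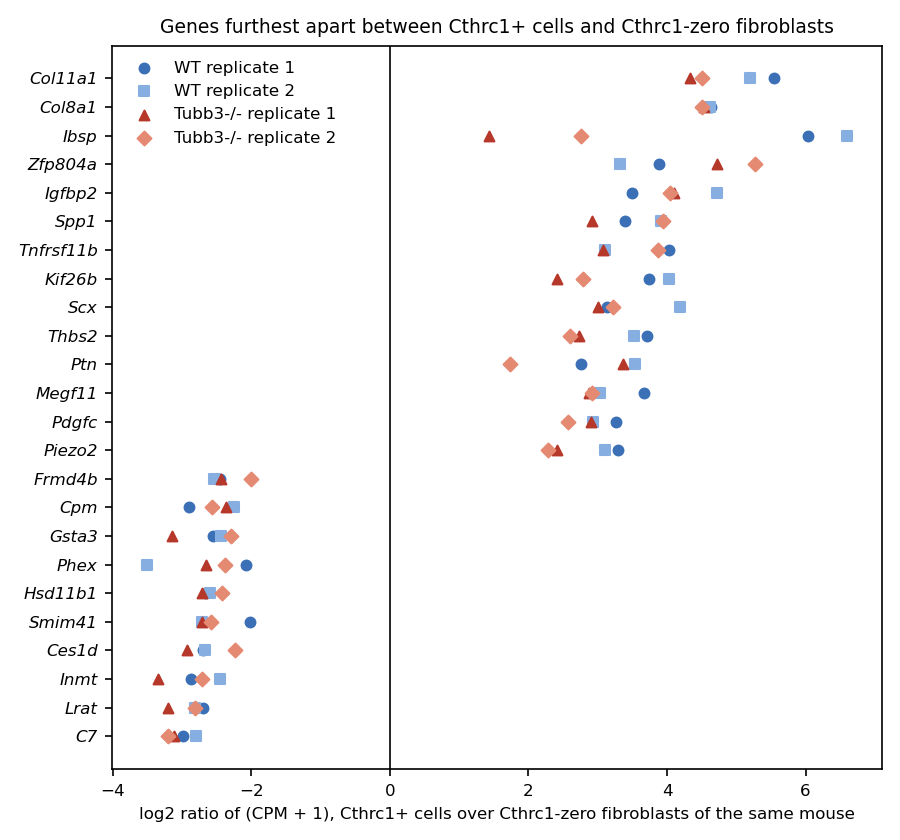
Log2 ratio of CPM + 1 (x axis) in Cthrc1+ cells to that in Cthrc1-zero fibroblasts of the same mouse, with a point for each of 4 mice, for 14 of the genes highest and the 10 lowest in members by their median. Col11a1 (4.85) and Col8a1 (4.58) lead the high end and C7 (-3.06) and Lrat (-2.81) the low end, and the points of Ibsp spread from 1.43 to 6.60.

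Signalling genes differed member by member. Of all 9049 genes at 10 CPM or more, 173 were higher and 223 lower in all mice, and the list counts here stand beside that share. In the TGF-β list, 3 of 28 genes were higher and 0 lower. These were the ligands Tgfb1 (1.90), at 163, 103, 137 and 123 CPM in members, and Tgfb2 (1.32), and the activin subunit gene Inhba (2.44). Of 15 BMP genes other than those of the rule, 0 were higher, and the ligand Bmp4 was lower (-1.57). In the Wnt list 4 of 22 were higher and 1 lower, namely the secreted Wnt binders Frzb (2.55) and Sfrp4 (2.28), the transcription factor Lef1 (2.31) and Wnt11 (1.26) on the high side and Wnt4 (-2.24) on the low side. Growth factor ligands and receptors split evenly, with 4 of 27 higher (among them Hbegf at 2.58 and Areg at 1.78, both EGF receptor ligands) and 4 lower (among them Fgfr4 at -1.94 and Ntrk2 at -1.68). Of 25 macrophage-directed and inflammatory ligands, 2 were higher, the chemokine Cxcl9 (1.75) and Cx3cl1 (1.56), and 3 lower, with Tnfsf13b, which encodes BAFF, at -1.63 and complement C3 at -1.50. Cxcl10, the interferon-induced chemokine that the study followed in pericytes, was at 88.9, 149, 102 and 105 CPM in members against a mean of 155 CPM.

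Of 32 transcription factors, 7 were higher and 1 lower, at a median of 0.0975, beside 173 higher and 223 lower of all 9049 genes. Meox1, a homeobox gene of activated fibroblasts, was at a log2 ratio of 3.38, Scx at 3.17, the mesenchymal factor Twist1 at 2.05, the bone factor Runx2 at 1.86 and the cartilage factor Sox9 at 1.54. Runx1 itself was at 414, 302, 444 and 431 CPM in members against a mean of 166 CPM (log2 ratio 1.12 to 1.38 by mouse), and at 576 CPM in Ptprc cells. Tcf21, a factor of alveolar lipofibroblasts, was the lower gene (-2.09), at 59.3, 118, 42.6 and 60.5 CPM in members against 253, 386, 191 and 263 CPM. The cyclin-dependent kinase inhibitors Cdkn2b and Cdkn2a were the 2 genes of 20 in the cell cycle list that were higher, at 40.2 against 2.41 CPM and at 15.4 against 0.472 CPM, and 0 were lower. Among 9 tubulins, Tubb2b was higher (2.16) and 0 were lower.

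Alveolar and inflammatory fibroblast genes were low in members beside the Cthrc1-zero fibroblasts, a class of mostly alveolar cells. The low ratios of alveolar genes thus also describe that class. Of 21 alveolar fibroblast genes, 14 were lower and 0 higher, at a median log2 ratio of -1.36, beside 223 lower and 173 higher of all 9049 genes. Inmt, a methyltransferase, averaged 222 CPM in members and 1461 CPM in Cthrc1-zero fibroblasts, the carboxylesterase Ces1d 51.5 and 323 CPM, Npnt, an integrin α8 ligand, 240 and 970 CPM, and Scube2 23.1 and 97.9 CPM. Of 15 inflammatory fibroblast genes 5 were lower and 0 higher (median -1.09), with Saa3 at 39.8 against 217 CPM and Lcn2 at 7.42 against 29.7 CPM. The adventitial list (15 genes, 0 higher, 1 lower, median -0.495) and the peribronchial list (8 genes, 0 either way, median 0.187) differed less. Pi16 was at 145 against 154 CPM, Dpt at 428 against 665, Hhip at 98.2 against 215 and Aspn at 280 against 161 CPM. Lowest of all genes were complement C7 (-3.06), the retinol-esterifying enzyme Lrat (-2.81), Inmt (-2.80), Ces1d (-2.69), Smim41 (-2.65) and Hsd11b1 (-2.63), which encodes a glucocorticoid-activating enzyme. Since Pdgfra was required only of the Cthrc1-zero cells, its own ratio is set by the rule.

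The lists with 0 genes beyond 2-fold in either direction in all mice included the secretory pathway and unfolded protein response (32 genes, median 0.00382), glycolysis and hypoxia (17, 0.0646), stress and immediate early genes (23, -0.216) and contractile genes (23, 0.254). Acta2, which encodes α-smooth muscle actin, was at 1823, 1496, 1908 and 1373 CPM in members against 1446, 1087, 1602 and 1439 CPM in Cthrc1-zero fibroblasts, so the classes overlapped. Interferon response genes had 1 higher and 2 lower of 29, at a median of -0.517, beside 173 higher and 223 lower of all 9049 genes.

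Levels were also set beside cells gated for other kinds. Postn averaged 615 CPM in members, 961 CPM in the 68 Cthrc1+ cells with Mki67, 183 CPM in 2845 cells with the peribronchial genes Hhip and Aspn, 72.8 CPM in 5296 cells with alveolar genes and 30.0 CPM in 102 cells with Saa3 and Lcn2. Acta2 ran in another order, at 2856.2 CPM in the Mki67 cells, 2359.2 CPM in the Hhip Aspn cells, 1649.7 CPM in members and 1156.8 CPM in the alveolar cells. The gates for these classes used the genes that name them. The alveolar, Saa3 Lcn2 and Hhip Aspn gates were all drawn from Col1a1-gated cells without Cthrc1, so they can share cells. The alveolar gate lay wholly within the Cthrc1-zero fibroblasts.

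**Figure D3:**
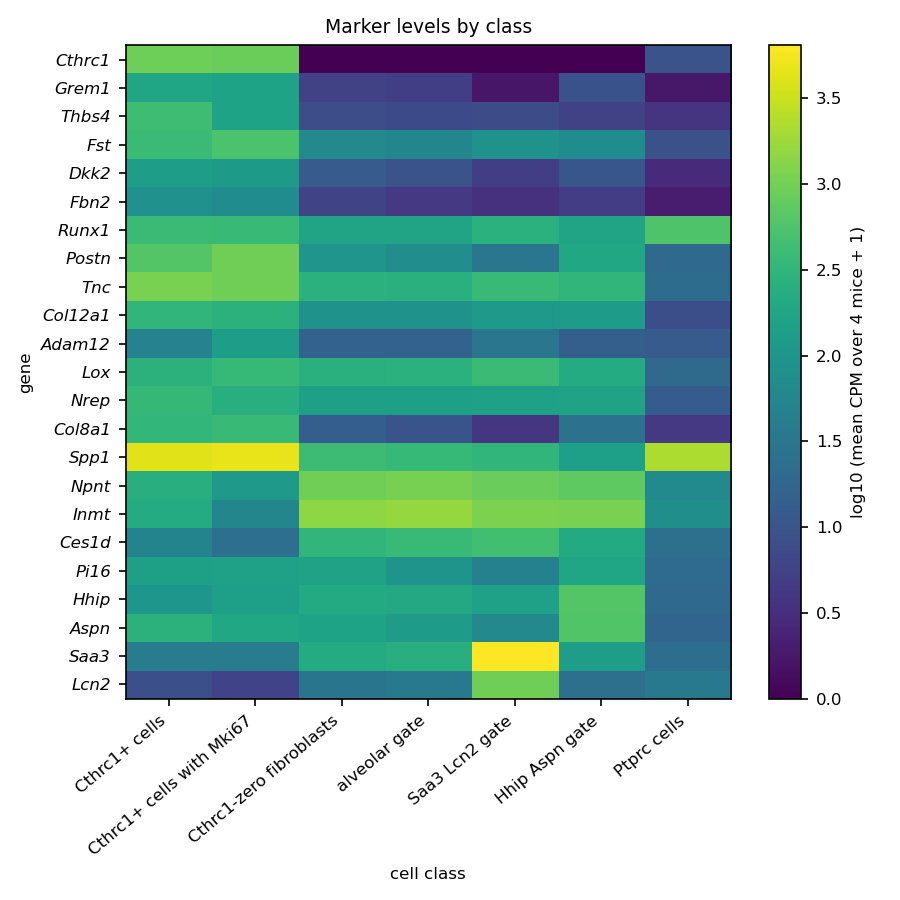
Level of marker genes (y axis) in Cthrc1+ cells and in 6 other cell classes (x axis), with colour for the log10 of the mean CPM over 4 mice plus 1. Postn (615 CPM in members and 961 CPM in those with Mki67) and Tnc are highest in the Cthrc1+ classes, and Inmt and Npnt are higher in the Cthrc1-zero, alveolar, Saa3 Lcn2 and Hhip Aspn classes than in either of them. The latter classes can share cells and are not independent.

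Members differed among themselves along Cthrc1. The median member had 9 Cthrc1 UMIs (interquartile range 3 to 25) and the highest 375. Cells of each mouse were ranked by the Cthrc1 share of their UMIs and the upper tercile (59, 32, 210 and 136 cells) set beside the lower tercile, again without a test. Of 3575 genes, 31 (0.867%) were at least 2-fold higher in the upper tercile in every mouse and 138 (3.86%) lower. C1qtnf3, which encodes a secreted C1q/TNF-related protein, was at 354, 284, 319 and 185 CPM in the upper and at 23.7, 15.7, 6.96 and 8.28 CPM in the lower tercile. Col8a1 was at 682, 677, 778 and 729 CPM against 22.3, 80.0, 72.9 and 55.7 CPM. In both genes the terciles were apart in every mouse. Edil3 (log2 ratio 3.66), Col11a1 (3.49), Cdkn2b (3.33), Thbs2 (2.74), Scx (2.27) and Igfbp3 (2.24) ran the same way, and so did the companion gene Thbs4, at a mean of 857 against 79.9 CPM.

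Of 12 adventitial genes measured, 0 were at least 2-fold higher and 9 at least 2-fold lower in the upper tercile in every mouse. Their median log2 ratio was -2.13, against -0.0383 over all 3575 genes. Lower levels were not confined to this list. Of 10 inflammatory fibroblast genes 7 were lower (median -1.81), and of 16 alveolar genes 9 (-1.16). Of 18 macrophage-directed and inflammatory ligands 7 were lower, and of 6 smooth muscle markers 3. In each of these lists 0 were higher. Collagens ran mostly the other way, with 5 of 20 higher and 1 lower. Clec3b, which encodes tetranectin, was at 1029, 571, 361 and 497 CPM in the lower tercile and at 50.8, 32.1, 38.8 and 94.9 CPM in the upper tercile. Pi16, a marker of adventitial fibroblasts, was at 624, 126, 106 and 215 CPM against 14.0, 6.97, 26.0 and 67.9 CPM. The terciles again did not overlap within a mouse. Apod (-3.57), the eotaxin gene Ccl11 (-3.55), C7 (-3.33), Ly6a (-3.08) and the acute-phase inhibitor Serpina3n (-2.79) were likewise lower in the upper tercile. Postn was at 1005 and 334 CPM and Runx1 at 500.1 and 285 CPM in the upper and lower tercile, while Acta2, at 1736 and 1854 CPM, had no common direction over the mice.

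The BMP antagonist Grem1 and the thrombospondin gene Thbs4 were detected together in part of the members. Both were found in 266 cells (20.2%), Grem1 alone in 230 (17.5%), Thbs4 alone in 358 (27.2%) and neither in 460. After thinning, Grem1 was found in 23.8% and Thbs4 in 33.6% of members, against 37.7% and 47.5% before. Any 1 companion gene admits a cell, and RNA of the other can be missed. These counts therefore do not show separate kinds of member. Grem1-only cells were 22.6%, 17.7%, 17.6% and 15.2% of members in the 4 mice and Thbs4-only cells 14.1%, 27.1%, 29.1% and 30.1%. The WT mice held few such cells, with 40 and 17 Grem1-only and 25 and 26 Thbs4-only cells in replicates 1 and 2. The classes had like depths, with medians of 25260.5 and 23895 UMIs. Of 3468 genes, 9 (0.260%) were at least 2-fold higher in Grem1-only cells in every mouse. The γ-smooth muscle actin gene Actg2 was at 209, 361, 330 and 266 CPM in Grem1-only and at 51.0, 60.3, 128 and 67.1 CPM in Thbs4-only cells. The others were Sbspon (3.13), Edil3 (2.56), Thbs2 (2.25), the potassium channel gene Kcnma1 (2.17), the matrix protein gene Tgfbi (1.99), the nucleotide receptor gene P2ry14 (1.48), the water channel gene Aqp1 (1.27) and Fbxo32 (1.22). The 4 genes (0.115%) lower in Grem1-only cells were Kcnmb2 (-2.33), Zfp804a (-1.96), Cilp (-1.75) and Frem1 (-1.74). In WT replicate 2 some values rested on very few UMIs. Kcnma1 and Edil3 were at 0 and 1.83 CPM in its Thbs4-only cells, and Zfp804a was at 4.91 CPM in its Grem1-only cells. Cilp was at 54.9, 59.0, 107 and 107 CPM in Grem1-only and at 335, 234, 302 and 308 CPM in Thbs4-only cells. Eln, which encodes elastin, was named after its values were seen. It averaged 2289 CPM in Grem1-only and 5802 CPM in Thbs4-only cells (log2 ratio -1.27, range -1.77 to -0.79), and so missed the 2-fold limit in at least 1 mouse.

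**Figure D4:**
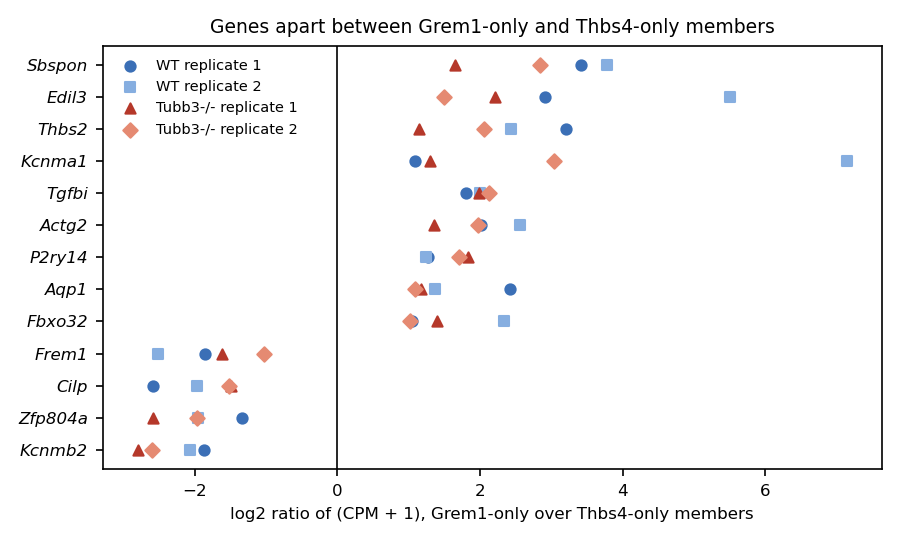
Log2 ratio of CPM + 1 (x axis) in members with Grem1 but no Thbs4 to that in members with Thbs4 but no Grem1, with a point for each of 4 mice, for the genes that differ at least 2-fold in every mouse. Sbspon, Edil3, Thbs2 and Actg2 are among the 9 genes on the Grem1 side, and Frem1, Cilp, Zfp804a and Kcnmb2 make up the Thbs4 side.

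Members of the whole-cell and mural cell-enriched pools were set beside each other as well. Cthrc1 averaged 1000.0 and 915 CPM and Postn 585 and 620 CPM in whole-cell and mural cell-enriched members, without a common direction over the mice. Grem1 averaged 114 and 179 CPM, also without one, whereas Acta2, at 878 and 1756 CPM, was lower in the whole-cell members of every mouse. Of 3439 genes, 8 (0.233%) were at least 2-fold higher in whole-cell members in every mouse and 8 (0.233%) lower. The macrophage genes Chil3 (74.7 against 0.821 CPM), Lyz2 (278 against 48.2 CPM) and Cd74 (70.3 against 17.6 CPM) were among the higher ones, and their part in the other values was not tested. The smooth muscle gene Myh11 (25.7 against 166 CPM) and Inmt (26.0 against 246 CPM) were among the lower ones.

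Between genotypes, no gene of the members passed the test as designed, which has no term for sex. By edgeR's quasi-likelihood test on UMIs summed per mouse, 0 of 12882 genes (0%) had an adjusted p under 0.05. An unadjusted p under 0.05 was found for 1070. DESeq2 called 70 of the 12882 (0.543%), 15 of them with higher and 55 with lower values in Tubb3-/- mice. It gave no adjusted p for 7497 of the 12882, so these could not be called. With replicate number, which coincides with sex, as a term in the fit, edgeR called 20 genes (0.155%), 5 higher and 15 lower in Tubb3-/- members. In 2511 genes (19.5%) the values of both Tubb3-/- mice were above those of both WT mice, and in 2501 (19.4%) below them. Tubb3 was at 5.34 and 10.5 CPM in WT and at 0.426 and 0.391 CPM in Tubb3-/- members, a log2 fold change of -4.13 ± 0.50 (SE), with an adjusted p of 0.128 by edgeR, and 0.0479 with replicate number in the fit.

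The markers of the class were compared between the genotypes within members. Cthrc1, which chose the members, was at 964 and 820 CPM in WT and at 1101 and 813 CPM in Tubb3-/- members. These levels are conditioned by the rule and are given without a test. Postn was at 630.0 and 581 CPM in WT against 695 and 557 CPM in Tubb3-/- members (log2 fold change 0.05 ± 0.14, edgeR adjusted p = 0.961). The genotypes overlapped in both of these genes. Runx1 was at 413 and 297 CPM against 456 and 428 CPM (0.31 ± 0.16, adjusted p = 0.689), and Cxcl10 at 88.6 and 147 CPM against 105 and 104 CPM (-0.15 ± 0.21, adjusted p = 0.900). Thbs4 and Grem1 also belong to the rule. Thbs4 was at 238 and 241 CPM in WT and 546 and 688 CPM in Tubb3-/- members, and Grem1 at 178 and 225 CPM against 135 and 153 CPM. The genotypes did not overlap in either of these 2 genes.

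No collagen gene passed the test, and the counts of genes with separate genotypes are given as a description. Of 21 collagens, 13 had both Tubb3-/- mice above both WT mice and 0 below (median log2 fold change 0.254, against 0.000686 over all genes). Over all genes tested in members, 19.5% were above and 19.4% below. In Cthrc1-zero fibroblasts 16 collagens were above and 1 below, where 26% of all 16062 genes were above and 23.6% below. In the whole-cell libraries alone, with 31 and 10 WT members, 6 were above. Col3a1 was at 5708 and 5960.0 CPM in WT and 6583 and 6697 CPM in Tubb3-/- members (0.19 ± 0.11, edgeR adjusted p = 0.739), and Col1a2 at 5684 and 5328 CPM against 7195 and 6302 CPM (0.29 ± 0.13, adjusted p = 0.607). Col4a1, a basement membrane chain named after its values were seen, was at 632 and 648 CPM against 991 and 966 CPM (0.61 ± 0.11, adjusted p = 0.234). Genes for collagen processing had 11 of 25 above and 1 below, yet 2 above and 6 below in the whole-cell libraries. The secretory pathway had 12 of 32 above and 2 below, and 7 and 1 after thinning, with the members chosen anew on the thinned UMIs.

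Of 24 stress and immediate early genes, 14 lay below both WT mice in Tubb3-/- members and 1 above (median -0.313). Over all genes tested in members, 19.4% lay below and 19.5% above. In Cthrc1-zero fibroblasts 16 of the 24 lay below and 0 above, beside the 23.6% and 26% of all genes in that class. In the whole-cell libraries alone 4 were below and 5 above. Fos, an immediate early transcription factor gene, was at 2214 and 2967 CPM in WT and 1907 and 2106 CPM in Tubb3-/- members (-0.37 ± 0.16, edgeR adjusted p = 0.616). Egr1, of the same kind, was at 1083 and 1282 CPM against 825 and 940 CPM (-0.42 ± 0.13, adjusted p = 0.457). Adventitial genes had 8 of 16 below and 1 above (median -0.521), against 3 and 1 in Cthrc1-zero fibroblasts. After thinning, with the members chosen anew, only 2 were below and 3 above. Alveolar genes had 6 of 21 below and 1 above, and after thinning 3 below and 6 above. Of 15 inflammatory fibroblast genes 6 were above and 1 below. The TGF-β list had 10 of 29 above and 5 below, matrix glycoproteins 8 of 36 above and 7 below, and contractile genes 3 of 23 above and 2 below, with Acta2 at 1818 and 1471 CPM against 1958 and 1364 CPM (0.01 ± 0.19, edgeR adjusted p = 1.00).

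Over all genes tested in members, 19.5% lay above and 19.4% below. In the other lists, the counts above and below were 8 and 4 of 23 proteases and inhibitors, 4 and 4 of 17 BMP genes, 4 and 2 of 23 Wnt genes and 6 and 8 of 34 transcription factors. They were 5 and 5 of 26 inflammatory ligands, 4 and 6 of 31 growth factors and receptors, 0 and 2 of 8 peribronchial genes and 3 and 3 of 32 interferon response genes. Glycolysis and hypoxia genes had 4 and 6 of 20, cell cycle genes 8 and 4 of 27 and tubulins 2 and 4 of 12. Serpine2 was at 1409 and 1379 CPM in WT and 1994 and 1838 CPM in Tubb3-/- members (0.46 ± 0.11, edgeR adjusted p = 0.317), and the cell cycle inhibitor gene Cdkn1a at 227 and 198 CPM against 137 and 159 CPM (-0.52 ± 0.13, adjusted p = 0.317).

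The genes with the smallest p-values on the low side included cell adhesion and matrix-remodelling genes. Icam1, which encodes a leukocyte adhesion molecule, was at 144 and 134 CPM in WT and 68.8 and 71.1 CPM in Tubb3-/- members (-0.996 ± 0.10, edgeR adjusted p = 0.108). Adamts9, a matrix metalloprotease gene, was at 140 and 164 CPM against 70.0 and 70.2 CPM (-1.11 ± 0.12, adjusted p = 0.108). WT replicates lay close together and about 2-fold above the Tubb3-/- replicates in both genes. Dpep1 (-1.23), Nup210l (-1.59) and Usp37 (-0.91) had an adjusted p of 0.123, the pro-apoptotic Bcl2l11 (-1.01) 0.128, and the transcription factor gene Ebf1 (-0.93) and the glypican gene Gpc6 (-0.80) 0.165. With replicate number in the edgeR fit, Icam1 (adjusted p = 0.0265), Adamts9 (0.0244), Dpep1 (0.0216), Nup210l (0.0178), Usp37 (0.045) and Gpc6 (0.0479) passed. Icam1 was also at lower values in Cthrc1-zero fibroblasts of Tubb3-/- mice, at 274 and 202 CPM in WT against 122 and 117 CPM. With cells thinned to 5000 UMIs, the rule was applied anew, which left 89 and 50 members in WT and 414 and 223 in Tubb3-/- mice. In these members the log2 fold change of Icam1 was -0.44 and that of Adamts9 -0.98, and Ebf1 and Gpc6 turned to 0.15 and 0.069. Depth and membership thus changed together. In the whole-cell libraries alone Icam1 was at -0.44 as well.

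On the high side, Sfrp1, which encodes a secreted Wnt inhibitor, was at 154 and 149 CPM in WT and 255 and 257 CPM in Tubb3-/- members (0.75 ± 0.10, edgeR adjusted p = 0.165). Frmd5 (1.17, adjusted p = 0.208), Serpina3n (0.71, 0.233) and the pyrophosphate transporter gene Ank (0.91, 0.233) followed. Spp1 was at 2845 and 1535 CPM against 6777 and 6263 CPM (1.57 ± 0.27, adjusted p = 0.234). Without the 5% of members richest in Spp1, it was at 806 and 125 CPM against 1381.7 and 1793.0 CPM. In the whole-cell libraries alone Spp1 was at 1645 and 129 CPM in WT and 9883 and 1644 CPM in Tubb3-/- members before normalization. The genotypes thus overlapped there. The haemoglobin genes Hbb-bs (8.38 and 11.2 against 117 and 533 CPM before normalization), Hba-a1 and Hba-a2 were also on this side, with adjusted p-values of 0.204 to 0.211. With replicate number in the edgeR fit, these 3 haemoglobin genes (adjusted p = 0.00439 to 0.0117) and Spp1 (0.0482) passed, and Sfrp1 (0.0575) did not. A single cell held 76.2% of the Hbb-bs UMIs in Tubb3-/- replicate 1 and 98.2% in replicate 2. Hba-a1 and Hba-a2 are near-identical copies whose reads may not be told apart.

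**Figure D5:**
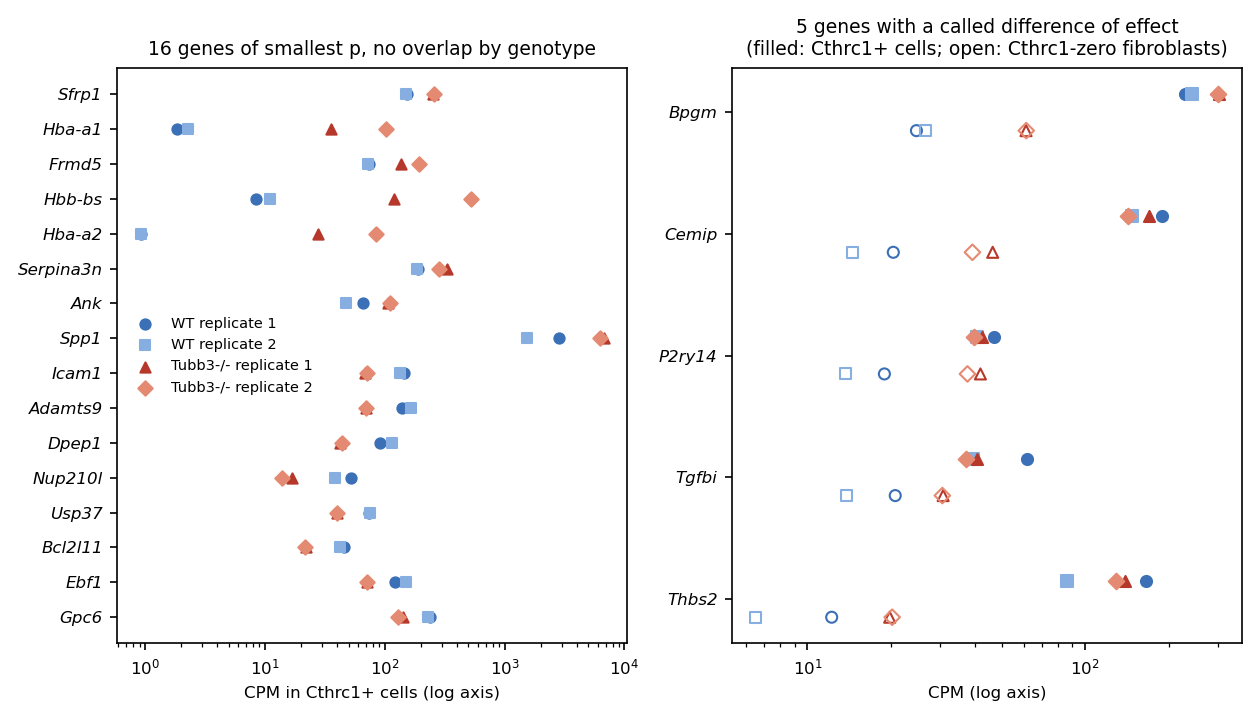
CPM per mouse on a log axis, in Cthrc1+ cells for the 16 genes with the smallest p-values and separate genotypes (left), and in Cthrc1+ cells (filled) and Cthrc1-zero fibroblasts (open) for the 5 genes whose genotype effect differed between the classes (right). The genotypes do not overlap in the left panel by the rule that chose the genes, and on the right Cemip, P2ry14, Tgfbi and Thbs2 overlap in members and are apart in Cthrc1-zero fibroblasts.

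Marker genes of other cell types were summed in the members. Immune markers (14 genes) reached 96.6 and 94.6 CPM in WT and 103 and 100 CPM in Tubb3-/- members, below the 128 to 157 CPM of Cthrc1-zero fibroblasts. Red blood cell markers (5 genes) were at 11.9 and 17.2 against 185 and 854 CPM, and pericyte markers (9 genes) at 189 and 181 against 157 and 181 CPM. Smooth muscle markers (8 genes) were at 603 and 543 against 520 and 436 CPM, endothelial markers (8 genes) at 48.6 and 55.0 against 33.8 and 41.4 CPM, and mesothelial markers (9 genes) at 52.1 and 257 against 83.6 and 91.1 CPM. Epithelial markers (9 genes) were at 2494.9 and 302 against 264 and 271 CPM, and 1 member of WT replicate 1 held 9316 of its 9884 Scgb1a1 UMIs, without which the sum was 321 CPM. No gene of these lists was at 0, and their part in the genotype values was not tested.

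The effect of genotype was compared between the members and the Cthrc1-zero fibroblasts in a single edgeR fit with the mouse as a block. Of 15803 genes, 5 (0.0316%) differed at an adjusted p under 0.05, and in all 5 the Tubb3-/- effect was smaller in the members. For Cthrc1-zero fibroblasts alone edgeR called 0 of 16062 genes (0%), with 2552 at an unadjusted p under 0.05, and DESeq2 called 508. Cemip, which encodes a hyaluronan-degrading protein, was at 190.0 and 147 CPM in WT and 169 and 143 CPM in Tubb3-/- members, but at 20.4 and 14.5 CPM in WT and 46.4 and 39.3 CPM in Tubb3-/- Cthrc1-zero fibroblasts (difference of the log2 fold changes -1.41 ± 0.10, adjusted p = 0.00737). Thbs2 was at 165 and 86.2 against 139 and 129 CPM in members and at 12.2 and 6.49 against 19.8 and 20.2 CPM in Cthrc1-zero fibroblasts (-0.99 ± 0.12, adjusted p = 0.0364). The genotypes overlapped in members and were apart in Cthrc1-zero fibroblasts in both genes. P2ry14 (-1.36 ± 0.14, adjusted p = 0.0254) and Tgfbi (-1.20 ± 0.13, adjusted p = 0.0334) differed too, with log2 fold changes of -0.10 and -0.41 in members and 1.29 and 0.83 in Cthrc1-zero fibroblasts.

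Bpgm, which encodes bisphosphoglycerate mutase, an enzyme best known from red blood cells, was at 229 and 242 CPM in WT and 303 and 302 CPM in Tubb3-/- members, and at 24.7 and 26.6 against 61.2 and 61.4 CPM in Cthrc1-zero fibroblasts (-0.89 ± 0.10, adjusted p = 0.0353). It was higher in Tubb3-/- mice in both classes. Each of the 5 genes had a higher level in members than in Cthrc1-zero fibroblasts in every mouse. All 5 calls were lost in the whole-cell libraries alone, and without either Tubb3-/- replicate.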

How the data were processed

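The deposited files held UMI counts per gene and cell, which the authors made with Cell Ranger 7.1.0 on mm10 with an added Cre gene and demultiplexed by CellPlex tag (strand handling is not given in the sources used here). The 12 tag features were left out, leaving 32286 genes, and the counts were used as deposited.

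Each sample of the series is a pool, and each mouse's genotype and replicate number were read from the tag assignments in the labels. Cells with 200 to 7500 genes and at most 15% mitochondrial UMIs were kept (30860 cells). Doublets were marked with Scrublet (scanpy 1.11.5), which marked 0.982% of whole-cell and 3.82% of mural cell-enriched cells. They were kept, and removed as an alternative. The members, gene lists and tests were chosen with earlier results of these data known. A whole-cell and a mural cell-enriched library shared 1 to 8 barcodes, and libraries of the same pool 0.

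UMIs were summed per mouse over both pools and tested with edgeR 4.0.16 (filterByExpr, TMM, quasi-likelihood F test, Benjamini-Hochberg adjustment over all genes, threshold 0.05, R 4.3.3), with DESeq2 1.42.0 as an alternative. The fit was tested on simulated data. Shares were compared with the exact two-sided permutation test over mice. For comparisons at equal depth each cell was thinned to 5000 UMIs, and shallower cells were left out. For shares, ratios, list counts and tests the classes were then chosen anew on the thinned UMIs, so membership changed along with depth. The percentages of cells with a gene after thinning kept the classes chosen on all UMIs.

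Named genes were the markers, the 2 most abundant genes of a list, the 8 genes with the smallest p on each side among those with separate genotypes and a mean of at least 10 CPM, the 15 highest and 10 lowest against Cthrc1-zero fibroblasts with up to 4 per list, and Tubb3, Cre and Cxcl10. Of the 15 highest, 1 is not reported here. Other genes were chosen after their values were seen. Further alternatives were another normalization, no filter on low counts, each pool alone, the replicate as a block and each mouse left out. The alternatives for list counts, the Spp1-rich and Scgb1a1-rich members left out and thinning within each pool were chosen after seeing the data.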

Additional observations from a re-analysis of the deposited data

Results flagged for a closer look

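The effect of the Tubb3-/- genotype differed between Cthrc1+ cells and Cthrc1-zero fibroblasts in 5 genes, by the edgeR test of that difference with the mouse as a block. The difference of the log2 fold changes (members minus Cthrc1-zero fibroblasts) was -0.89 for Bpgm, -1.41 for Cemip, -1.36 for P2ry14, -1.20 for Tgfbi and -0.99 for Thbs2. In Cthrc1-zero fibroblasts the log2 fold changes were 1.26, 1.30, 1.29, 0.83 and 1.09, and in members 0.36, -0.12, -0.10, -0.41 and 0.07. For all 5 genes the Cthrc1-zero fibroblasts of either Tubb3-/- mouse had a higher level than those of either WT mouse. With cells thinned to 5000 UMIs and both classes chosen anew, Cemip (-0.70), P2ry14 (-1.16) and Tgfbi (-0.26) lost the call. P2ry14, Tgfbi and Thbs2 were also higher in Grem1-only than in Thbs4-only members.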

How the results depend on the processing

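Both share comparisons kept their direction in every alternative run, and genotypes stayed apart. In the runs with a mouse left out neither could change, since the genotypes were apart in the main run. With 2 mice a group the exact test could not pass 0.05 in any run. The count of called genes depended on the tool and the mice. In members it was 0, and 70 with DESeq2, 409 without the filter on low counts, 2 after thinning and 6 to 237 with a mouse left out. In Cthrc1-zero fibroblasts it was 0, and 508 with DESeq2, 5 without doublets and 0 to 638 with a mouse left out. For the difference of effects it was 5, and 19 with DESeq2, 269 without the filter, 11 without doublets, 26 after thinning, 0 in whole-cell and 3 in mural cell-enriched libraries and 0 to 296 with a mouse left out. The cause was not tested, beyond the fewer samples of the last setting. The replicate block, which coincides with sex, gave 20 calls in members and 643 in Cthrc1-zero fibroblasts. The deviations of same-numbered mice from their genotype means correlated over genes at 0.227 and 0.412 in these classes. With 2 mice a genotype the deviations of its mice mirror each other, so both pairs give the same value. Thinning, with both classes chosen anew, raised the genes lower in members from 135 to 238. The 16 genes named by smallest p were chosen for separate genotypes in the same counts. Their direction could thus hardly turn with a mouse left out or with another tool. Of 186 alternative values 184 kept it, which is given as a description, and after thinning Ebf1 was at 0.15 and Gpc6 at 0.069. The Tgfbi difference was 0.51 in whole-cell libraries, where WT mice had 31 and 10 members. Genes with few UMIs per member were limited by these numbers.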
